A study of Bos taurus with 28 samples.

Results

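AP-1 is a dimer of a FOS family protein and a JUN family protein, or of 2 JUN family proteins, that binds DNA and turns growth factor, stress and cytokine signals into transcription. FOS, JUN, JUNB, EGR1, IER2, MYC and KLF6 belong to the immediate early genes, whose mRNA appears within minutes of a stimulus without new protein synthesis and is short-lived. FOSL1 and FOSL2 follow later, and JUND is largely constitutive. In liver the immediate early genes are known for their burst after partial removal of the organ and after handling of the tissue. The genes taken here were FOS, FOSL1, FOSL2, JUN, JUNB, JUND, EGR1, IER2, MYC and KLF6, and every probe set that the array annotation gives to 1 of these symbols alone was used. They were 21 probe sets of 9 of the 10 genes, of 24016 probe sets other than controls. KLF6 had no such probe set and was not analysed here. Where a gene had several probe sets, they are numbered by their mean signal, number 1 being the brightest.

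Each array was given as liver mRNA of a Holstein cow, ovariectomized and not lactating, biopsied at the end of 14 days with an estradiol ear implant (E2T), intravaginal progesterone inserts (P4T), both (E2P4T) or no hormone (CO). All groups lacked ovaries, and there were 7 arrays in each, 28 in all. Cows passed through the treatments in a Latin square, so that arrays of 1 cow are not independent, and the labels name neither the cow nor the period. The p-values below take the arrays as separate samples. Signals are given as log2 of the deposited intensity, and fold changes as differences on that log2 scale.

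Liver markers were high on 27 arrays, with a mean log2 signal over 10 hepatocyte genes between 14.42 and 15.16. On the array labelled E2P4T number 5 that mean was 9.63, while the mean of 7 kidney tubule markers was 10.31, above the 4.51 to 7.81 of the others. P4T number 4 had a 3′ minus 5′ difference of 8.48 at the GAPD control probe sets, against 2.31 to 7.28 elsewhere, a measure that is larger where RNA is shorter. These 2 arrays held the highest signal of 31.3% (E2P4T number 5) and 20.4% (P4T number 4) of all probe sets, and results are also given for the 26 arrays without them. CO number 4 was an ordinary liver array by its hepatocyte mean (14.79) but stood out at the immediate early genes themselves.

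Markers of other cells overlapped between the groups. Over 26 arrays the mean of 7 leukocyte and Kupffer cell markers was between 10.64 and 11.58 with E2T, 11.08 and 11.59 with P4T, 11.12 and 11.68 with E2P4T, and 11.04 and 11.64 in CO. That of 7 kidney tubule markers was 5.30 to 6.81 with E2T, 5.11 to 5.93 with P4T, 4.51 to 6.45 with E2P4T, and 5.19 to 7.81 in CO. Endothelial markers averaged 6.42 to 7.94 with E2T, 7.59 to 8.53 with P4T, 7.28 to 8.07 with E2P4T, and 7.04 to 8.61 in CO, and red blood cell markers had their widest range, 3.42 to 7.49, in CO. Their part in the results below was not tested.

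No marker of the 7 cell types listed had an adjusted p under 0.05 against CO over the 28 arrays. Without adjustment 4 were lower in E2T (2 of 7 leukocyte, 1 of 7 kidney tubule and 1 of 6 endothelial). Of all probe sets, 4.81% were lower there. In P4T 1 of 7 leukocyte markers was lower (2.44% of all). In E2P4T 2 of 10 hepatocyte markers were lower (3.11% of all) and 1 of 3 bile duct markers was higher (1.86% of all). None of these 3 calls was left over 26 arrays, where the hepatocyte median was -0.11 in place of -0.94. Over 26 arrays the markers past an unadjusted p of 0.05 in E2P4T were the kidney tubule gene SLC12A1 and the T cell gene CD3E, both lower, and the endothelial gene TEK, higher. Those gained over 26 arrays were PCK1 (hepatocyte) and LUM (stellate cell) in E2T and CD68 (Kupffer cell) and LUM in P4T, all higher, and UMOD (kidney tubule), lower in P4T. Over 26 arrays 2437 of 24016 probe sets had such a p in E2T, 2042 in P4T and 2288 in E2P4T, in either direction.

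No member reached an adjusted p under 0.05 in limma, in E2T, P4T or E2P4T against CO. The same held for any estradiol against none, any progesterone against none, their interaction, E2T against P4T and the F test over the treatments, and the share of all probe sets that did so was 0% in each. All 3 treatments were compared with the same CO arrays. Without adjustment, 3 of 21 member probe sets were lower in E2T with p under 0.05, where 4.81% of all probe sets were, and 0 were higher (1.24% of all). In P4T, 0 were lower (2.44% of all) and 0 higher (0.899% of all). In E2P4T, 1 was lower (3.11% of all) and 0 higher (1.86% of all). The 3 in E2T were 1 probe set each of FOSL2, JUNB and IER2, and the 1 in E2P4T was JUNB. By an exact permutation test of the difference in means, two-sided and unadjusted, 5 of the 63 comparisons had a p under 0.05, these 4 and JUND number 2 in E2T. By that test 4 of 21 members were thus lower in E2T (6.18% of all probe sets) and 0 higher (1.32% of all). In P4T 0 were lower (2.83% of all) and 0 higher (0.82% of all), and in E2P4T 1 was lower (2.84% of all) and 0 higher (1.48% of all). In these biopsies, fewer cells of a type and less RNA per cell cannot be told apart.

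**Figure D1:**
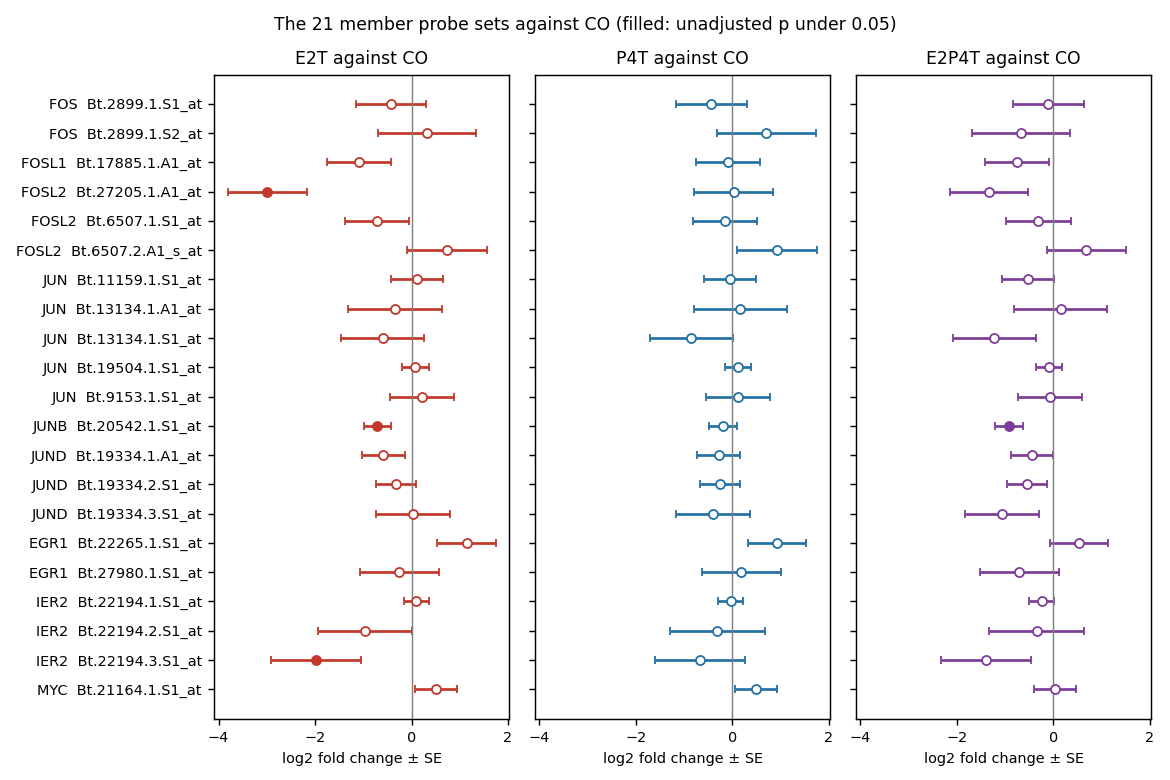
Log2 fold change with its SE (horizontal axis) of each of the 21 member probe sets (vertical axis, with array identifiers) in E2T, P4T and E2P4T against CO, 7 arrays per group. Filled points have an unadjusted p under 0.05: FOSL2, JUNB and IER2 in E2T and JUNB in E2P4T.

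The median log2 fold change of the 21 probe sets was -0.32 in E2T, against -0.15 over all probe sets, and 12 were below 0, where 62.9% of all probe sets were. In P4T the median was -0.05 (-0.06 over all, with 12 members and 57% of all below 0). In E2P4T it was -0.44 (-0.05 over all), with 17 members below 0 against 54.9% of all. Over 26 arrays the medians were -0.44 in P4T (-0.15 over all) and -0.62 in E2P4T (-0.14 over all). Fold changes in E2T below stand beside a general shift of -0.15.

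Among the FOS family, which cannot bind DNA as dimers of their own and pair with JUN proteins, FOS itself (Gene ID 280795) was measured by 2 probe sets. At number 1 the lowest, median and highest log2 signals were 4.08, 6.88 and 9.50 in E2T, 4.15, 7.93 and 9.22 in P4T, 3.32, 6.12 and 7.89 in E2P4T, and 2.77, 7.11 and 12.18 in CO. CO thus held both the lowest array (number 1) and the highest (number 4) of all 28, and the groups overlapped throughout. The log2 fold changes were 0.32 ± 1.02 (SE) in E2T, 0.71 ± 1.02 in P4T and -0.67 ± 1.02 in E2P4T, with exact permutation p of 0.818, 0.608 and 0.637. Without CO number 4 they were 1.23, 1.62 and 0.24, and that in E2P4T had turned its sign. FOS probe set number 2 ranged from 3.35 to 9.04 over the 28 arrays and had fold changes of -0.43, -0.44 and -0.10.

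FOSL1, a FOS protein that is low in most resting tissues, had 1 probe set (Gene ID 531389). Its lowest, median and highest log2 signals were 4.57, 7.11 and 7.48 in E2T, 6.35, 7.39 and 9.95 in P4T, 3.07, 7.19 and 8.54 in E2P4T, and 5.36, 7.85 and 9.18 in CO. All 7 E2T arrays lay below the CO mean of 7.65, and only 1 below the lowest CO array. The fold change in E2T was -1.09 ± 0.66 (exact permutation p = 0.0985, limma adjusted p = 0.823), and those in P4T and E2P4T were -0.09 and -0.74.

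FOSL2 (Gene ID 509889), whose protein is a longer-lived AP-1 partner than FOS, had 3 probe sets that did not move together. At number 3 the lowest, median and highest log2 signals were 1.07, 2.70 and 5.05 in E2T, 3.86, 5.50 and 8.82 in P4T, 2.54, 4.00 and 8.31 in E2P4T, and 3.67, 6.22 and 6.93 in CO. Of the E2T arrays, 6 of 7 were below the lowest CO array and the remaining one was inside the CO range, while P4T and CO overlapped widely. The fold change was -2.99 ± 0.82 in E2T (exact permutation p = 0.00175, limma adjusted p = 0.81), 0.02 ± 0.82 in P4T and -1.33 ± 0.82 in E2P4T (exact p = 0.144). The highest E2P4T value was that of number 5, and over 26 arrays the E2P4T change was -1.98 ± 0.67 (exact permutation p = 0.00991, limma adjusted p = 0.462).

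This FOSL2 probe set was dim, with a mean log2 signal of 4.67 that only 12.5% of all probe sets fell below. Its signal followed the GAPD 3′ minus 5′ difference with r = 0.48 over the 28 arrays, a value exceeded by 14.8% of all probe sets. The GAPD difference had a median of 4.36 in E2T, 4.54 in P4T, 4.15 in E2P4T and 6.12 in CO. With that difference as a covariate, chosen after seeing the data, the E2T change was -2.60 ± 0.77 (limma adjusted p = 0.998). Within array numbers 1 to 4 it was -3.16 and within numbers 5 to 7 it was -2.77, and without each array in turn it lay between -3.38 and -2.71. Within numbers 5 to 7 the unadjusted p was not under 0.05. On the linear scale the signals were low, 2.1 to 33.2 in E2T and 12.7 to 122.3 in CO.

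The other FOSL2 probe sets gave another picture. Number 1 had medians of 4.70 in E2T, 5.24 in P4T, 5.55 in E2P4T and 6.27 in CO, with fold changes of -0.72, -0.15 and -0.31. Number 2, whose suffix marks probes shared by several transcripts, had medians of 4.90 in E2T, 5.51 in P4T, 4.94 in E2P4T and 3.43 in CO, with fold changes of 0.73, 0.93 and 0.69. Both overlapped CO in every group, with no unadjusted p under 0.05. Across the 28 arrays number 3 correlated with them at only r = 0.23 and r = 0.15, so that the lower FOSL2 signal in E2T rests on 1 of 3 probe sets.

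JUN proteins pair with each other or with FOS proteins, and JUN is the most potent activator among them. JUN (Gene ID 280831) was measured by 5 probe sets. At number 1 the lowest, median and highest log2 signals were 9.92, 10.41 and 10.80 in E2T, 9.59, 10.56 and 11.03 in P4T, 9.35, 10.49 and 10.78 in E2P4T, and 9.71, 10.25 and 11.93 in CO. Apart from CO number 4 the groups occupied the same range, and the fold changes were 0.08, 0.12 and -0.09, each with an SE of 0.28. The lowest P4T and E2P4T values were those of P4T number 4 and E2P4T number 5. Without these and CO number 4 the changes over 25 arrays were 0.34, 0.53 and 0.33, that in P4T with an unadjusted p under 0.05 (limma adjusted p = 0.583) and that in E2P4T with its sign turned. CO number 4 was chosen after its high values were seen, so that p does not test the change.

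Fold changes at the other JUN probe sets were 0.11, -0.05 and -0.52 (number 2, in E2T, P4T and E2P4T), 0.21, 0.11 and -0.07 (number 3), and -0.35, 0.17 and 0.15 (number 5). Number 4 was at -0.60, -0.85 and -1.22, with all 7 E2T arrays below the CO mean. None of these had an unadjusted p under 0.05 over the 28 arrays. Across the 28 arrays the r of pairs of JUN probe sets ran from -0.43 to 0.48. The highest, between numbers 1 and 2, was 0.37 over 26 arrays and 0.01 over the 25 arrays without P4T number 4, E2P4T number 5 and CO number 4. Numbers 2 and 4 had r = 0.23 over 28 arrays, 0.45 over 26 and 0.43 over 25.

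JUNB, a JUN protein that activates less strongly than JUN and can hold it back, had an unadjusted p under 0.05 in both groups that received estradiol. At its only probe set (Gene ID 514246) the lowest, median and highest log2 signals were 8.62, 9.61 and 10.07 in E2T, 9.33, 9.87 and 10.71 in P4T, 8.40, 9.20 and 10.09 in E2P4T, and 9.20, 10.29 and 10.998 in CO. All 7 E2T arrays and all 7 E2P4T arrays lay below the CO mean of 10.12, and 2 of E2T and 4 of E2P4T lay below the lowest CO array, so that the groups overlapped. In P4T 5 of 7 were below the CO mean and none below the lowest CO array.

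The JUNB signal in E2T was 0.61 times that in CO, a log2 fold change of -0.71 ± 0.28 (exact permutation p = 0.0425, limma adjusted p = 0.81). In E2P4T it was 0.53 times that in CO (-0.92 ± 0.28, exact permutation p = 0.0152, limma adjusted p = 0.933), and in P4T the change was -0.19 ± 0.28 (exact p = 0.484). With any estradiol against none it was -0.72 ± 0.20 (limma adjusted p = 0.959), and with any progesterone against none -0.20 ± 0.20. The interaction was -0.02 ± 0.40, and E2T against P4T was -0.51 ± 0.28 with an unadjusted p above 0.05. With a term for array numbers 1 to 4 against 5 to 7 the unadjusted p of JUNB in E2T against P4T was under 0.05, and no probe set passed after adjustment there.

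Which arrays entered mattered for JUNB. Without CO number 4, the highest of all 28 at this probe set, the E2T change was -0.56 (exact permutation p = 0.0839) and the E2P4T change -0.77 (exact p = 0.0315). Over 26 arrays the E2P4T change was -0.81 (exact permutation p = 0.0291). With arrays centred on their medians the E2T change was -0.44, and that in E2P4T -0.86. With this centring, and with quantile normalization, the unadjusted p in E2T was no longer under 0.05. JUNB had r = 0.45 with the GAPD difference (rho = 0.41, permutation p = 0.0145 and 0.0292, adjusted p = 0.131 and 0.208 over 27 relations). That r was 0.29 without the 2 farthest arrays, 0.53 within array numbers 1 to 4 and -0.27 within numbers 5 to 7. With the GAPD difference as a covariate the JUNB changes were -0.59 in E2T and -0.80 in E2P4T, both still with an unadjusted p under 0.05. Within array numbers 1 to 4 the E2T and E2P4T changes were -0.82 and -0.81, and within numbers 5 to 7 they were -0.55 and -1.06. The change of -0.55 had no unadjusted p under 0.05.

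JUND, the JUN protein of resting cells, which is thought of as less inducible than the others, had 3 probe sets (Gene ID 517192), of which number 1 was bright. Its lowest, median and highest log2 signals there were 12.06, 12.66 and 14.55 in E2T, 11.79, 12.80 and 14.05 in P4T, 11.47, 12.87 and 13.31 in E2P4T, and 11.64, 13.39 and 14.39 in CO. The groups overlapped, and the fold changes were -0.32 ± 0.41, -0.26 ± 0.41 and -0.54 ± 0.41 in the same order of treatments. Number 2 had fold changes of -0.58, -0.28 and -0.44, and the dim number 3 of 0.02, -0.40 and -1.07. At number 2 all 7 E2T arrays lay below the CO mean and 3 below the lowest CO array. Its E2T difference had an exact permutation p of 0.00932, although in limma, which pools the spread of all groups and borrows it across probe sets, the unadjusted p was not under 0.05.

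The signal at the bright JUND probe set followed the GAPD 3′ minus 5′ difference across arrays. Over 28 arrays r was 0.85 and rho 0.85, with a permutation p of 1e-05 for each, the smallest that 1e+05 resamples can give, and an adjusted p of 0.00027 over 27 relations of 9 genes with 3 array measures. Only 0.296% of all probe sets had a higher r with that difference. It was 0.84 without the 2 arrays farthest from the median GAPD difference, 0.82 within array numbers 1 to 4 and 0.84 within numbers 5 to 7. With the GAPD difference as a covariate the JUND changes were 0.09 in E2T and -0.11 in E2P4T, and that in E2T had turned its sign. The other JUND probe sets had r of 0.41 and -0.02 with it.

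**Figure D2:**
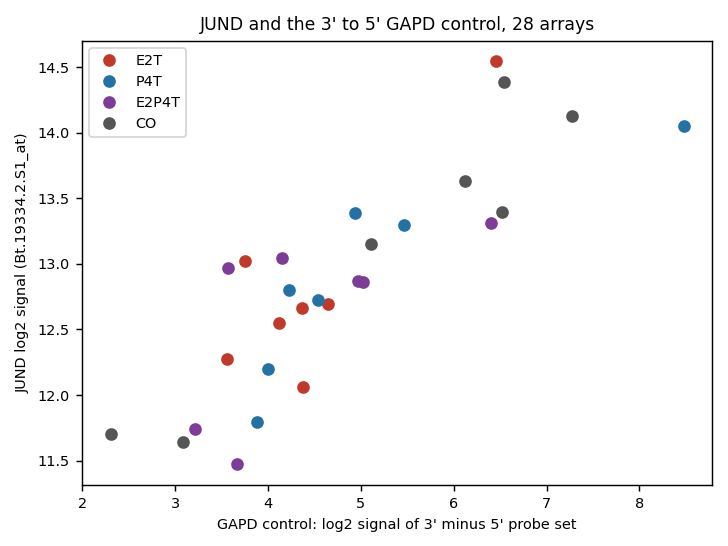
Log2 signal of JUND at probe set number 1 (vertical axis) against the log2 difference of the 3′ and 5′ GAPD control probe sets (horizontal axis), 1 point per array, coloured by group. Signals climb together from 11.64 and 11.71 at the lowest GAPD differences, both CO, to 14.05 at the highest, P4T number 4.

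The other relations with array measures were weaker. Of the 27 over 28 arrays, JUN correlated negatively with the signal of the hybridization spikes (r = -0.55, adjusted permutation p = 0.0423), although rho was -0.40 (adjusted p = 0.208) and r without the 2 arrays farthest on the spikes was -0.26. The spikes differed between the groups. Over 26 arrays their mean log2 signal was 13.06 to 15.42 in E2T and 13.40 to 14.34 in P4T. It was 12.95 to 14.90 in E2P4T and 14.11 to 16.26 in CO. Its part in the fold changes was not tested. The 25 arrays leave out CO number 4, chosen after its high values were seen, so p-values over them are descriptive. Over 25 arrays EGR1 correlated negatively with the spikes (r = -0.67, adjusted permutation p = 0.0205, rho = -0.54 with adjusted p = 0.0632, r = -0.48 without the 2 farthest). EGR1 correlated negatively with the GAPD difference over these 25 (r = -0.55, adjusted permutation p = 0.0391), but rho was -0.31 (adjusted p = 0.319), and r was -0.82 within array numbers 1 to 4 and 0.68 within numbers 5 to 7. No member followed the hepatocyte mean with an adjusted p under 0.05.

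EGR1 (Gene ID 407125), a zinc finger factor induced through serum response elements, was measured at probe set number 1 with lowest, median and highest log2 signals of 8.72, 9.64 and 10.27 in E2T, 8.49, 9.54 and 10.00 in P4T, 7.92, 9.07 and 10.02 in E2P4T, and 5.07, 8.65 and 12.03 in CO. Again CO held both ends, with 6.01 and 5.07 on numbers 1 and 3 and 12.03 on number 4, and every treated array lay between them. All 7 E2T and all 7 P4T arrays were above the CO mean of 8.42, and 5 of 7 E2P4T arrays. The fold changes were 1.14 ± 0.60 in E2T (exact permutation p = 0.248, limma adjusted p = 0.814), 0.93 ± 0.60 in P4T (exact p = 0.308) and 0.54 ± 0.60 in E2P4T (exact p = 0.573).

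These EGR1 values turned on single CO arrays. Without CO number 4 the E2T signal was 3.34 times that in CO (log2 1.74 ± 0.51, exact permutation p = 0.0216, limma adjusted p = 0.873), the P4T signal 2.90 times (exact p = 0.0402) and the E2P4T signal 2.20 times (exact p = 0.182). CO number 4 was chosen for its high signal at these genes, so these p-values are descriptive and do not test the changes. Without CO number 3 the log2 changes were 0.58, 0.38 and -0.02. EGR1 probe set number 2 had fold changes of -0.26, 0.19 and -0.71 and did not follow number 1 (r = -0.01 over 28 arrays).

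IER2 (Gene ID 525380), a small nuclear protein of the immediate early class, was bright at probe set number 1, with lowest, median and highest log2 signals of 9.97, 10.56 and 10.79 in E2T, 9.82, 10.41 and 10.73 in P4T, 9.77, 10.16 and 10.43 in E2P4T, and 9.66, 10.09 and 11.93 in CO. The groups overlapped, with fold changes of 0.10, -0.04 and -0.24, each ± 0.26. The IER2 probe set with an unadjusted p under 0.05 was number 3, at 1.00, 2.41 and 5.37 in E2T, 0.14, 4.90 and 8.12 in P4T, 1.68, 3.36 and 6.20 in E2P4T, and 3.50, 4.67 and 6.95 in CO. There 5 of 7 E2T arrays were below the lowest CO array.

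Its fold change in E2T was -1.99 ± 0.94 (exact permutation p = 0.0175, limma adjusted p = 0.81), with -0.68 in P4T and -1.39 in E2P4T. This was the dimmest member probe set, with a mean of 3.75 that 3.77% of all probe sets fell below, and it followed the GAPD difference with r = 0.60. With that covariate the E2T change was -1.41, with quantile normalization -1.28 and without CO number 3 -1.62, and none of these had an unadjusted p under 0.05. Number 2 had fold changes of -0.96, -0.31 and -0.34. Number 1 correlated with number 2 at r = -0.27 and with number 3 at r = -0.19 over the 28 arrays.

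MYC, which pairs with MAX to drive genes of growth and ribosome production, had 1 probe set (Gene ID 511077). The lowest, median and highest log2 signals were 7.30, 7.76 and 8.12 in E2T, 6.38, 7.76 and 8.39 in P4T, 6.76, 7.16 and 8.09 in E2P4T, and 5.07, 7.33 and 8.99 in CO. All 7 E2T arrays and 6 of 7 P4T arrays were above the CO mean of 7.24, and none above the highest CO array. The fold changes were 0.50 ± 0.44 (exact permutation p = 0.368, limma adjusted p = 0.856), 0.48 ± 0.44 and 0.03 ± 0.44.

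**Figure D3:**
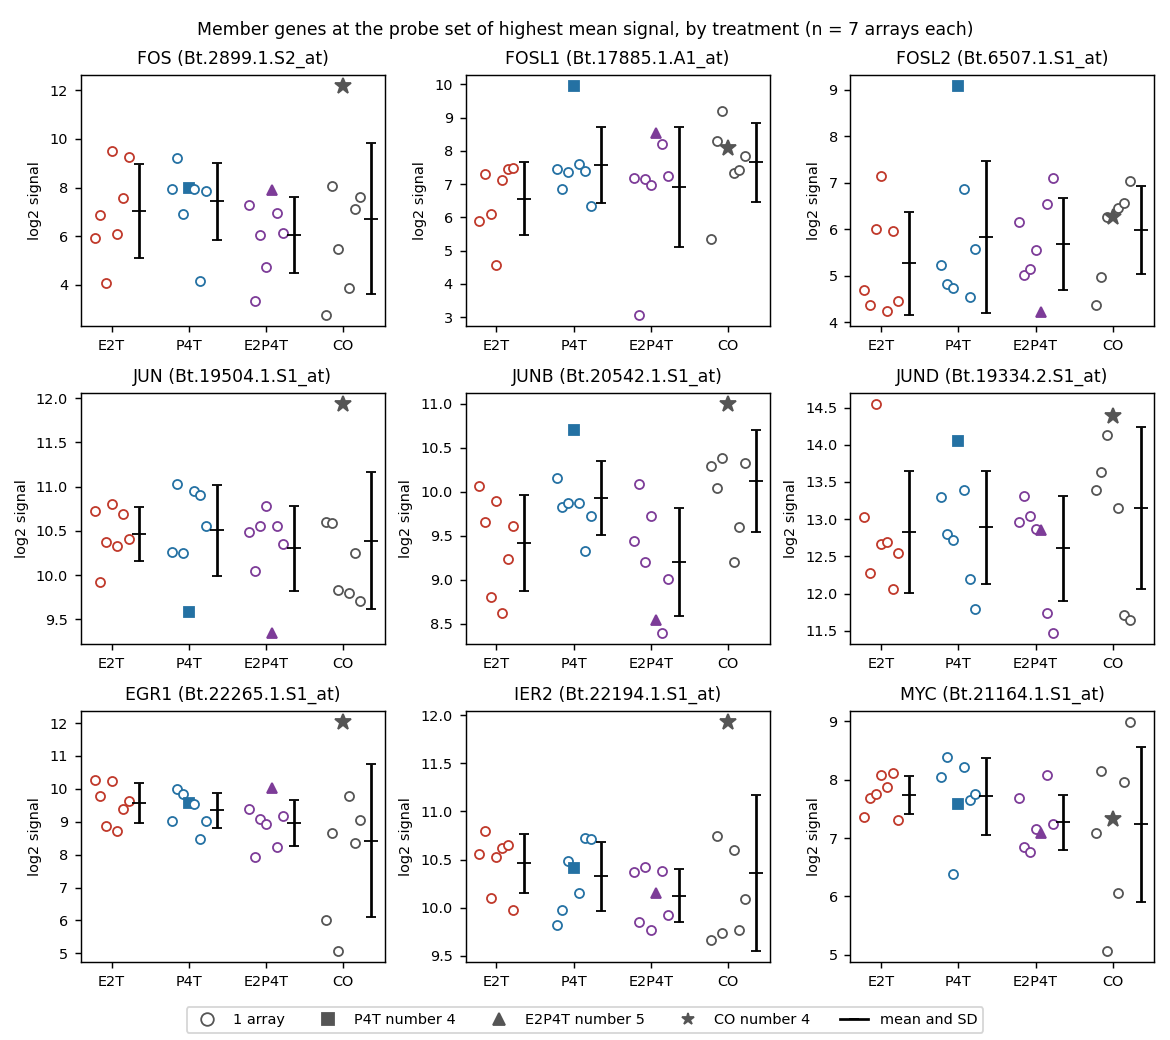
Log2 signal (vertical axes) of the 9 measured genes, each at its probe set of highest mean, on every array of E2T, P4T, E2P4T and CO, with the mean and SD of each group of 7 in black. The star is CO number 4, which lies above all other arrays for FOS, JUN, JUNB, EGR1 and IER2, and the square and triangle are P4T number 4 and E2P4T number 5.

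With any estradiol against none, 3 of 21 had an unadjusted p under 0.05 (4.28% of all probe sets): FOSL2 number 3 at -2.17 ± 0.58, JUNB, and IER2 number 3 at -1.35 ± 0.66. With any progesterone against none there were 0 (2.07% of all), and 0 in the interaction (3.63% of all). In E2T against P4T there was 1 (1.94% of all), FOSL2 at -3.02 ± 0.82. Over 26 arrays any estradiol called FOSL2 number 3 and JUNB (5.21% of all), and IER2 number 3 was lost (-1.08 ± 0.63). Any progesterone then called JUN number 4 at -1.23 ± 0.55 (4.83% of all; limma adjusted p = 0.944), the interaction 0 (4.6% of all) and E2T against P4T FOSL2 again (2.09% of all). FOSL2 number 3 and JUNB had an F test p under 0.01, as did 0.437% of all probe sets.

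The study called a gene from its F test, its contrast and a minimum fold together. The study's model held cow and period and its genes were filtered for presence, neither of which was done here. By the same thresholds in limma FOSL2 and JUNB were called in E2T (0.333% of all probe sets), 0 members in P4T (0.221% of all) and JUNB in E2P4T (0.212% of all). Over 26 arrays, again 0 members had an adjusted p under 0.05, where the share of all probe sets was 0% in E2T and P4T and 0.00416% in E2P4T. The unadjusted calls there were the same 3 in E2T (7.64% of all were lower), 0 in P4T (6.48% of all) and FOSL2, JUNB and JUN number 4 in E2P4T (7.02% of all). FOSL2 alone kept an F test p under 0.01 (1.18% of all), and JUNB did not.

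CO number 4 carried a joint peak of these genes. This array was singled out after its values were seen. It held the highest signal of the 28 arrays at 8 of 21 member probe sets and, by the brightest probe set, at 5 of 9 genes, whereas it held the highest signal of 2.09% of all probe sets. P4T number 4 also held 8 of 21 member probe sets, but there 20.4% of all, and E2P4T number 5 held 3, with 31.3% of all. FOS at probe set number 1 was 12.18 there, against a median of 6.96 and a maximum of 9.50 on the other 27 arrays, 37.2 times that median. EGR1 was 12.03 against a median of 9.07 and a maximum of 10.27, 7.76 times the median.

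JUN reached 11.93 on that array at its brightest probe set, against a maximum of 11.03 elsewhere, and 2 more JUN probe sets had their maximum there (10.84 and 9.86). IER2 was 11.93 against a maximum of 10.79, and JUNB 10.998 against 10.71. MYC (7.33, against a median of 7.68), FOSL1 (8.09 against 7.33) and FOSL2 (6.25 against 5.55) were not at their maximum on it. JUND ranked 2 of 28 at number 1 (14.39), 17 at number 2 and highest at the dim number 3 (6.76 on both CO number 4 and the next array). Other probe sets of the genes at their maximum did not all follow: FOS number 2 ranked 3, EGR1 number 2 ranked 8, IER2 numbers 2 and 3 ranked 17 and 16, and JUN numbers 4 and 5 ranked 6 and 26.

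Of 24 measured genes among 37 other immediate early genes listed, 4 had their highest signal on CO number 4, against 6 on E2P4T number 5 and 2 on P4T number 4. They were FOSB, a further FOS protein (8.79, against a maximum of 8.55 on the other 27), the nuclear receptor NR4A1 (10.24 against 8.64), the matricellular protein CCN1 (11.09 against 9.63) and the stress sensor GADD45B (10.90 against 10.72). NR4A1 and CCN1 had medians of 6.77 and 6.95 on the other arrays. DUSP1, a phosphatase that ends MAP kinase signals, ranked 3 of 28 (10.88), and NFIL3 ranked 27.

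**Figure D4:**
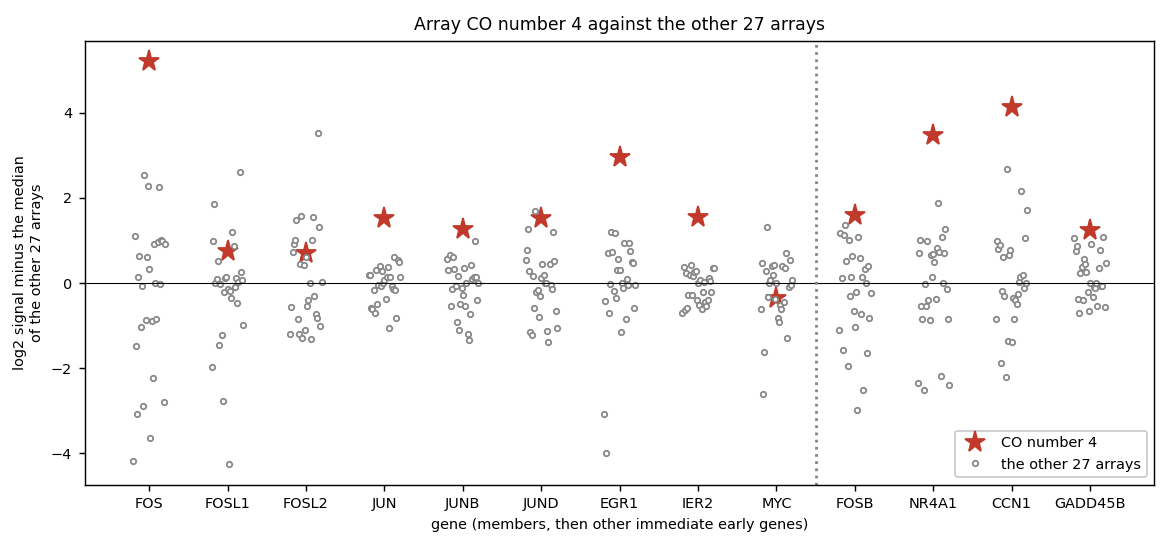
Log2 signal on each array minus the median of the 27 arrays other than CO number 4 (vertical axis), for the 9 member genes and, right of the dotted line, the 4 other immediate early genes with their maximum on CO number 4. The star (CO number 4) tops all circles (the other 27 arrays) for FOS, JUN, JUNB, EGR1 and IER2 and is below 0 for MYC.

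At the brightest probe set, CO arrays varied most for 6 of the 9 genes. EGR1 had an SD of 0.61 in E2T, 0.53 in P4T, 0.71 in E2P4T and 2.32 in CO, and MYC 0.32, 0.66, 0.47 and 1.33 in the same order. These genes were FOS, JUN, JUND, EGR1, IER2 and MYC. Over all member probe sets, 10 of 21 had their largest SD in CO, as 28% of all probe sets did. Over the 25 arrays without the 3 named above it was the same 6 genes and 12 of 21 probe sets, where 49.7% of all probe sets had it, and EGR1 still had an SD of 1.85 in CO. No test of the spread was made.

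Across the 28 arrays the member genes were weakly correlated, each at its brightest probe set. The median Pearson r of the 36 pairs was 0.12, with a range of -0.36 to 0.63 and 29 pairs above 0, and the median Spearman rho was 0.10. Member genes against all probe sets had a median r of 0.004. These coefficients share arrays, and arrays share cows, so that the permutation p-values count the arrays as independent. All are two-sided and adjusted over the 36 pairs.

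FOS and EGR1 had the highest coefficient (r = 0.63, permutation p = 0.00039, adjusted p = 0.014; rho = 0.52, adjusted p = 0.103), and 0.00833% of all probe sets had a higher r with FOS. Without the 2 arrays farthest on FOS, CO numbers 4 and 1, r was 0.40. EGR1 and IER2 followed (r = 0.61, permutation p = 0.00162, adjusted p = 0.0292; rho = 0.41, adjusted p = 0.218), with r = 0.57 without CO numbers 3 and 1. Those 2 pairs alone passed for r, and no pair passed for rho. FOS with IER2 was at 0.46, IER2 with JUN at 0.44, and both were near 0 without the 2 farthest arrays (0.06 and 0.08).

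Over the 25 arrays without P4T number 4, E2P4T number 5 and CO number 4, no pair passed for r, and the median r was 0.01. FOS with EGR1 was then at 0.50 and EGR1 with IER2 at 0.48 (adjusted permutation p = 0.111 for both). FOS with MYC passed for rho alone (rho = 0.70, adjusted permutation p = 0.00756, r = 0.52 with adjusted p = 0.111), and r was 0.51 without the 2 arrays farthest on FOS. CO number 4 was left out after its high FOS signal was seen (12.18). Its MYC signal was 7.33, below the median of 7.68 on the other arrays, so leaving it out favours this pair. The p-values over the 25 arrays are therefore descriptive and do not test the pairs. With all arrays no pair passed for rho. Over the 25 arrays JUNB was not above 0.25 with any member, and was at -0.34 with IER2. Leaving out CO number 4 alone gave 0.52 for FOS with EGR1, 0.47 for EGR1 with IER2, 0.19 for FOS with IER2, 0.10 for JUN with IER2 and a median r of 0.06.

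**Figure D5:**
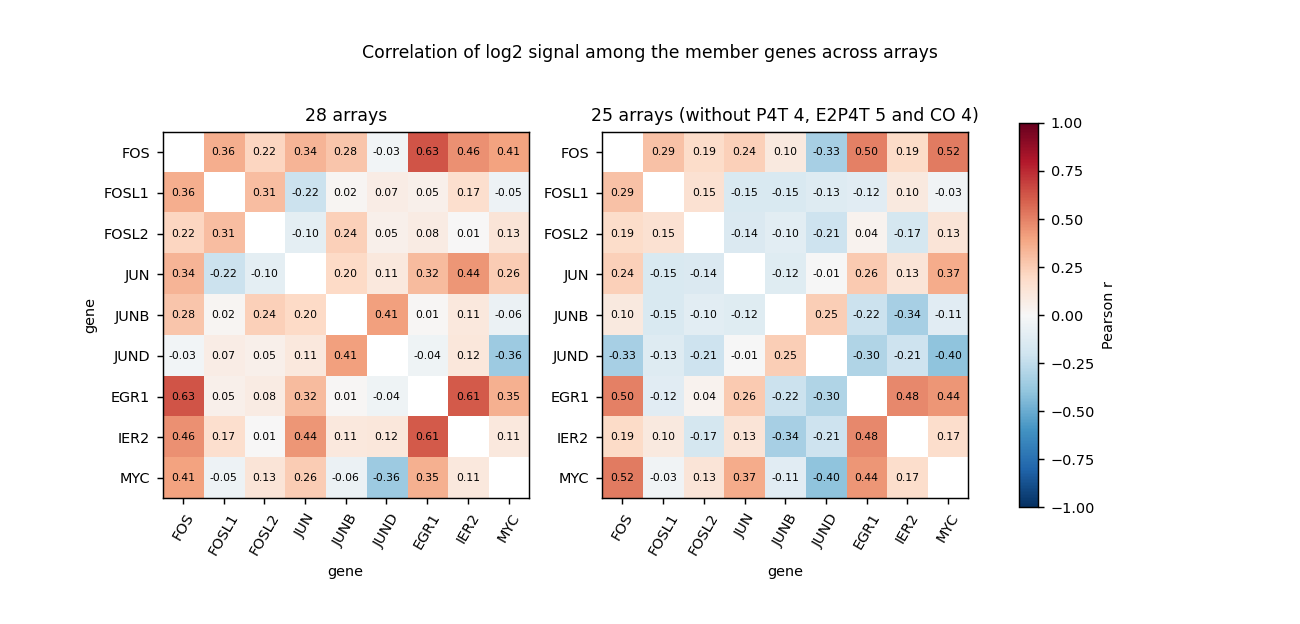
Pearson r of log2 signal across arrays for each pair of the 9 genes, on 28 arrays (left) and on 25 arrays without P4T number 4, E2P4T number 5 and CO number 4 (right), on a scale from -1 to 1. FOS with EGR1 is at 0.63 on the left and 0.50 on the right, and FOS with IER2 at 0.46 and 0.19.

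The genes most like each member were taken over 26 arrays with group means removed, among 7544 brighter probe sets with 1 symbol. FOS was closest to ADAMTS1 (r = 0.72), LOC513055 (0.70) and APOLD1 (0.69), and JUN to the chemokines CCL4 (0.71) and CCL3 (0.71) and to SNRPA1 (0.70). Over 28 arrays these were 0.67, 0.25 and 0.62 for FOS and 0.69, 0.65 and 0.13 for JUN, in the same order. Over 25 arrays, without CO number 4, those of CCL4, CCL3 and SNRPA1 with JUN were 0.38, 0.21 and 0.47, and that of ADAMTS1 with FOS 0.54. JUND was closest to TUBB4A (0.95), PTOV1 (0.93) and TLE5 (0.93), with 0.96, 0.94 and 0.93 without CO number 4.

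EGR1 was closest to the translation factor subunit EIF3B (r = 0.80), PHC2 (0.78) and GCDH (0.78). JUNB was closest to LRRC8C (0.72), IER2 to S100A14 (0.75), MYC to the lipid droplet protein PLIN2 (0.77), FOSL1 to ZNF692 (0.74) and FOSL2 to PLXNA2 (0.61). Over 28 arrays LRRC8C was at 0.55, S100A14 at 0.37, PLIN2 at 0.71, ZNF692 at 0.70 and PLXNA2 at 0.20. All genes named here were picked from the 3 highest of 7544 coefficients over 26 arrays and have no test.

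Genes around AP-1 and MYC did not pass an adjusted p of 0.05 either. Each listed gene was taken at its probe set of highest mean signal. Among the other immediate early genes, 1 of 24 was higher in E2T with an unadjusted p under 0.05 (1.24% of all probe sets). In E2T 0 were lower (4.81% of all). In P4T 0 were lower (2.44% of all) and 0 higher (0.899% of all). In E2P4T 0 were lower (3.11% of all) and 0 higher (1.86% of all). The gene higher in E2T was KLF10, a zinc finger repressor known as an estrogen-induced early gene in human cells (0.56 ± 0.25, limma adjusted p = 0.81). The paper lists RHOB among the genes most lowered by estradiol. RHOB was 1 of the 24, and at the probe set used here it had no unadjusted p under 0.05. The paper names no probe set for RHOB and used another model and other numbers of arrays, so this is no test of its value. The 24 genes had a median of 0.02 with E2T, 0.07 with P4T and -0.03 with E2P4T, against -0.15, -0.06 and -0.05 over all probe sets. Of 11 measured bZIP partners, which dimerise with FOS or JUN, 0 passed in any treatment over 28 arrays, beside the same shares of all probe sets. Over 26 arrays MAFF (-0.51) and CREM (-0.55) were lower in E2T with an unadjusted p under 0.05, as were 7.64% of all probe sets. Among the other immediate early genes CCN2 was then higher in P4T (0.71). Of 24016 probe sets, 2042 had such a p there, in either direction.

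Of 13 measured kinases and factors upstream, 1 was lower in E2T, as were 4.81% of all probe sets. It was the JNK family kinase MAPK10 (-1.92 ± 0.80, limma adjusted p = 0.81), at a dim probe set with a mean of 5.28. Among 7 partners and antagonists of MYC, 1 was higher in E2P4T (1.86% of all), the MAX partner MXI1 (0.53 ± 0.25, limma adjusted p = 0.933). Over 26 arrays MXI1 was at 0.47, with an unadjusted p no longer under 0.05, and MXD3, another MAX partner, was higher in P4T (0.93). Among 16 genes with AP-1 sites known in human, 1 was lower in E2T (4.81% of all), the protease MMP3 (-1.23 ± 0.52). In E2P4T the metallothionein MT2A was lower (-1.19 ± 0.53) and the quinone reductase NQO1 higher (0.78 ± 0.34). Of all probe sets, 3.11% were lower there and 1.86% higher. Over 26 arrays MT2A was at -0.81, with an unadjusted p no longer under 0.05, and NQO1 at 0.69.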

How the data were processed

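The mRNA of 28 biopsies, given as liver, was labelled and hybridized to Affymetrix bovine arrays. The authors deposited MAS5 signal intensities on a linear scale, with no detection calls in the table used. Their log2 was taken with no other scaling, and 112 control probe sets of 24128 were left out of the tests. The number of arrays limits the precision. Symbols came from the array annotation, and the 9 gene IDs had the same symbol in RefSeq (names only). R 4.3.3 and limma 3.58.1 fitted 1 mean per group with moderated variances and a trend, over all 24016 probe sets with no filter, with Benjamini-Hochberg adjustment (threshold 0.05). The study's mixed model was not run, since cow and period are not in the labels. The P4T labels call the exposure intradermal, and the protocol and the paper a vaginal one, renewed within the treatment. Arrays with the same number in different groups deviated together with a median r of 0.02 (11 of 42 pairs over 0.1). For arrays with different numbers it was -0.0015 (24 of 252 pairs over 0.1). The labels do not say whether equal numbers pair arrays, and these values do not settle it. Single values were also tested by exact permutation of the arrays, a test added after seeing the data. Alternatives were quantile normalization, centring on the median, a larger offset, a filter on dim probe sets, ordinary variances, array weights, blocks on the array number, fits within array numbers and leaving out arrays. The paper says that an outlier array each of P4T and E2P4T was not used, without naming them, and its numbers of CO and E2T arrays are not the 7 given here, so that the P4T and E2P4T arrays used here may already lack them. Correlations used 1e+05 resamples per pair. The script was tested on simulated data. Members, lists, named genes (all member probe sets, the 3 most alike genes and up to 3 per list) and alternatives were chosen with earlier results of these data known. Leaving out CO number 4 together with the 2 arrays apart and the GAPD covariate were chosen after seeing the data. The lists included markers of hepatocyte, kidney tubule, leukocyte and Kupffer, endothelial, stellate, bile duct and red blood cells. Sequences and detection calls were not analysed here.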

Additional observations from a re-analysis of the deposited data

Results flagged for a closer look

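Of 84 combinations of a member probe set and a group, 9 had 1 array far from the other 6 by Dixon's ratio, where chance flags about 1 in 20. On the 2 arrays that stood apart these were FOSL1 on P4T number 4 (log2 signal 9.95, next 7.60), FOSL2 probe set number 3 on E2P4T number 5 (8.31, next 4.96) and JUN number 2 on E2P4T number 5 (5.62, the lowest, next 7.61). JUN number 1 was far above the rest on CO number 4 (11.93, next 10.60), and JUND number 1 on E2T number 3 (14.55, next 13.03), an array whose GAPD 3′ minus 5′ difference of 6.45 was the highest of E2T. Far below the rest lay FOSL1 on E2P4T number 2 (3.07, next 6.97), IER2 number 2 on E2T number 5 (1.63, next 5.68) and on P4T number 6 (1.93, next 6.26), and MYC on P4T number 3 (6.38, next 7.58).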

How the results depend on the processing

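No member probe set had an adjusted p under 0.05 in E2T, P4T or E2P4T against CO under any alternative run, over 2664 fold changes, of which 172 had another sign than the reported one. The largest shares of changed signs were in fits within array numbers 5 to 7 (21 of 63) and within 1 to 4 (14 of 63). With a replicate block the JUNB change was -0.71 in E2T (limma adjusted p = 0.72) and -0.92 in E2P4T (limma adjusted p = 0.85), the medians of the members kept their values and 0 members passed after adjustment. With this block JUNB, beside FOSL2, had an unadjusted p under 0.05 in E2T against P4T, and IER2 number 3 had none in any estradiol against none. Whether the array numbers pair the samples is not known. Leaving out 1 array at a time gave 1 to 3 of 21 members with an unadjusted p under 0.05 in E2T and in E2P4T and 0 to 1 in P4T. Of all 24016 probe sets, the same fits gave 971 to 2387 in E2T, 924 to 1802 in E2P4T and 617 to 1473 in P4T. Low signal over background limits FOSL2 number 3 and IER2 number 3. The median pairwise r of 0.12 (jackknife SE 0.12) was 0.29 within array numbers 1 to 4, -0.012 within 5 to 7 and 0.27 with the mean over the probe sets of a gene. The cause was not tested.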
